A study of Rattus norvegicus with 4 samples.

Results

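The genes described here are 10 genes known for hair cells and for the epithelium and gels of the inner ear: Ush1c, Cdh23, Myo7a, Otof, Slc26a5, Tecta, Tectb, Otog, Pou4f3 and Atoh1. They were listed by name, with earlier results of these data known, and each was sought among the probes with 1 gene symbol in the platform annotation. Of the 10 genes 7 had a probe, 1 each, and Tectb, Pou4f3 and Atoh1 had none and are not analysed here. The rat samples were vestibular ganglion neurons, collected and pooled by laser capture guided by immunofluorescence for calretinin, a calcium buffer, with their total RNA labelled with Cy5. Cells labelled calretinin-positive (2 arrays) are the afferents with calyx endings, and cells labelled calretinin-negative (2 arrays) the dimorphic and bouton afferents. The arrays were grouped by title, because the descriptions of the negative arrays speak of positive cells, and they are called libraries labelled positive and labelled negative. The sources used here do not give strain, age, sex or the number of animals in a pool, nor whether the 2 arrays of a group came from separate pools, so p-values measure only the spread between these arrays, which may be technical.

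Hair cells turn movement into an electrical signal through a bundle of stereocilia joined by tip links. Cadherin 23 (Cdh23) forms the upper part of the tip link, harmonin (Ush1c) is the scaffold that anchors it, and the motor myosin VIIa (Myo7a) works at the same place; loss of any of them causes Usher syndrome with deafness and vestibular failure. Otoferlin (Otof) is the calcium sensor of transmitter release at the hair cell ribbon synapse, and prestin (Slc26a5) the motor protein of outer hair cells in the cochlea. The tectorins (Tecta, Tectb) and otogelin (Otog) are secreted into the gels that cover the sensory epithelia, and Atoh1 and Pou4f3 are transcription factors that make and maintain hair cells. The cell bodies of vestibular afferents lie in the ganglion, apart from the epithelium they innervate.

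The promoters below stand for the members with a signal on every array, Ush1c and Otof, and for Cdh23, the member with the greatest difference between the groups. Each runs 5′ to 3′ from 250 bases before the annotated start to 50 bases from the start on, as RefSeq gives it on build GRCr8. These are chr1:105880033-105880332 (minus strand) for Ush1c, chr6:31647664-31647963 (plus strand) for Otof and chr20:29165283-29165582 (minus strand) for Cdh23. Capitals mark matches on either strand to the E-box words CAGCTG and CAGATG, of the kind that basic helix-loop-helix factors such as Atoh1 bind, and to TATAAA.
Ush1c: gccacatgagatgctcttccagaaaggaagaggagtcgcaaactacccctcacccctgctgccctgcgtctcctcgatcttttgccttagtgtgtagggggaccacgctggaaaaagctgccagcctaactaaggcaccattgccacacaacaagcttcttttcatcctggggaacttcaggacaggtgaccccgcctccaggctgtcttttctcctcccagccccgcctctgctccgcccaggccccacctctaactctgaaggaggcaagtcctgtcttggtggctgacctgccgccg
Otof: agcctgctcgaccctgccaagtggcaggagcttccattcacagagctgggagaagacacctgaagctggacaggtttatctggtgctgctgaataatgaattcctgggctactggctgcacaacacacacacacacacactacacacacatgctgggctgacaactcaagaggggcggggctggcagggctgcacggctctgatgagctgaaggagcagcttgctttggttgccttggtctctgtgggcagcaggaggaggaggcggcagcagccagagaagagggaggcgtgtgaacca
Cdh23: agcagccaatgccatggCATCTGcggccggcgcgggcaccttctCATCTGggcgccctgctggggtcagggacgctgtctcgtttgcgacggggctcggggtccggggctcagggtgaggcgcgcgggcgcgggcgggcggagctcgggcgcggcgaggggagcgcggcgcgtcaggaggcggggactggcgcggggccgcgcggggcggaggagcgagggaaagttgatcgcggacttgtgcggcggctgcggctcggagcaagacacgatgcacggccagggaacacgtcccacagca

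The Cdh23 promoter held 2 matches to CAGATG, read as CATCTG on the printed strand, and they began 233 and 206 bases before the start. None of the 3 words occurred in the windows of Ush1c and Otof. Over the 33469 rat promoters of the same length 16.6% held CAGATG, 15.1% CAGCTG and 14.2% TATAAA, so a match is common. Of the 9 members with a promoter entry 1 held CAGATG, 0 held CAGCTG and 0 held TATAAA. Ush1c and Otog are neighbours in the annotation, read away from each other with 2665 bases between their starts.

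Which value belongs to a name had to be settled before the members could be read. A probe ID encodes a row and a column of the array. Names of the early part of the table were read at their own ID, which was taken as given, and names of the late part at values further on. The stretch between them was not read. The comparison below measures only the offset of the late part from the early part, so it cannot show which of them is displaced. Control probes repeated at 1 position of the array were compared as mean log2 intensity over the 4 arrays. Across 108 pairs of an early and a late copy the correlation was 0.121 with the late value at its own ID, 0.935 with the value 5 table rows later and 0.997 with the value 5 array positions later. The last 2 readings part only where the table skips a position; in the 12 pairs where they do, the correlation was 0.0227 with table rows and 0.9989 with positions, and the median gap between copies was 2.92 and 0.0852 on the log2 scale. Pairs of probes are not independent replicates, and 6 late copies stand behind these 12 pairs. Late names are therefore read 5 positions later, and the reading by table rows, by which the members were first defined, is given for the member whose value it changes.

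**Figure D1:**
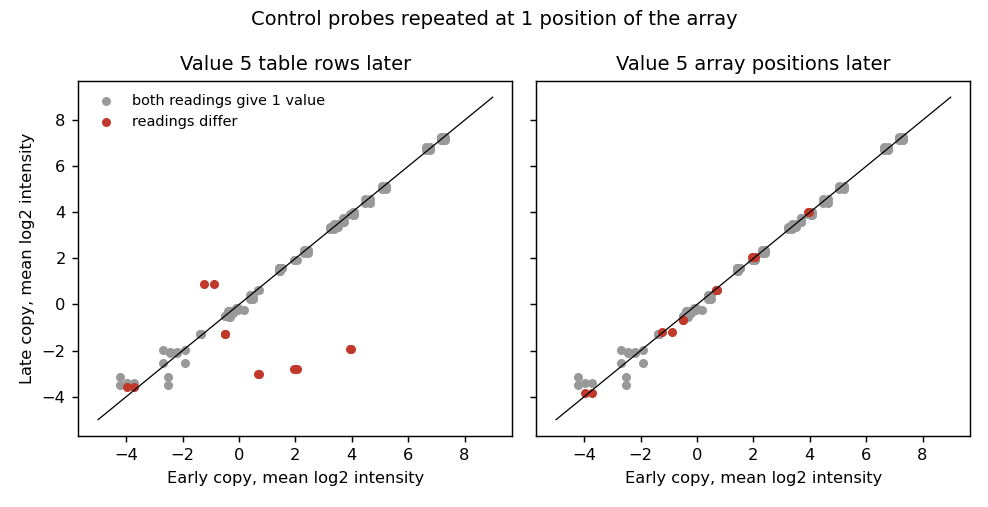
Mean log2 intensity of late copies of control probes (vertical axis) against early copies (horizontal axis), with the late value taken 5 table rows later (left) or 5 array positions later (right); the line marks equal levels. The 12 red pairs, where the readings differ, scatter on the left (r = 0.0227) and lie along the line on the right (r = 0.9989).

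Among the members the choice of reading matters for Otog alone. Of the 4 late members, Myo7a, Tecta and Cdh23 have the same value under both, and the early members Ush1c, Otof and Slc26a5 are read at their own IDs. Otog had intensities of 0.111 and 0.285 in the libraries labelled positive and 0.289 and 0.0959 in those labelled negative at the value 5 positions later. By table rows it would have had 24.7 and 24.1 against 36.8 and 34.1, a log2 change of -0.54 (adjusted p = 9.78e-05, limma, Benjamini-Hochberg). Intensities are on a linear scale with an array median near 0.99, and probes with a mean log2 intensity under the 40th percentile, 0.456 in intensity, were left out of the test as dim. By position Otog lay under that limit on every array and its groups overlapped, so the bright value is not given here as that of Otog.

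Of the 7 members with a probe 4 passed the limit for dim probes, and of these 3 were lower in the libraries labelled positive, 0 higher, and 1 did not pass the test. Over all 21070 probes tested 23.6% were lower and 40.6% higher at an adjusted p under 0.05 (limma, Benjamini-Hochberg). By table rows 4 of 5 members tested were lower. Tecta and Cdh23 passed the limit through the libraries labelled negative, in which they were brighter, so the count describes these probes and supports nothing about the list. Only Ush1c and Otof lay above the limit on all 4 arrays. The median log2 change was -0.84 over the 4 members tested and 0.11 over all probes tested. The members' median includes Tecta and Cdh23, so it too is only a description. The log2 change of Ush1c was -0.41 and that of Otof -0.13.

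**Figure D2:**
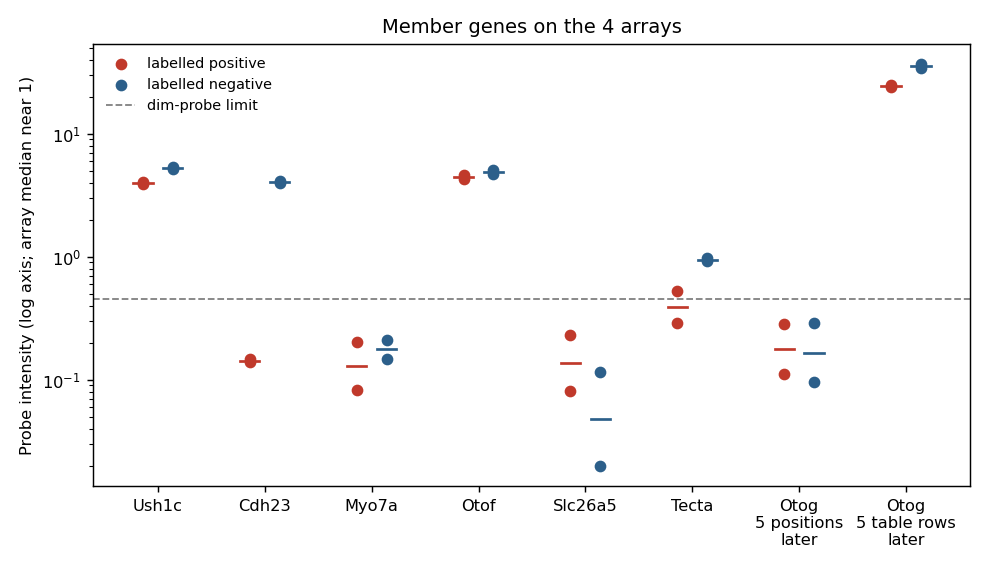
Probe intensity of the 7 members on a logarithmic axis, with a point for each array, a short bar at the geometric mean of each group, and a dashed line at the limit for dim probes (0.456); an intensity of 0 (Slc26a5) is drawn at the bottom. Ush1c and Otof lie above the line on all arrays, Cdh23 only in the libraries labelled negative, and Otog is shown under both readings.

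Of the tip-link genes, Cdh23 and Ush1c were lower in the libraries labelled positive and Myo7a was not tested. Cdh23 had intensities of 0.148 and 0.139 in the libraries labelled positive and of 4.09 and 3.95 in those labelled negative. It was thus under the limit for dim probes on the first pair of arrays and well above it on the second, with no overlap. Set against the limit for dim probes, Cdh23 was at least 8.82-fold lower in the libraries labelled positive (log2 change -4.81 ± 0.17 SE, adjusted p = 3.24e-08, limma, Benjamini-Hochberg). The log2 change of a gene this dim has no exact size: with log2(value + 1) it was -2.14. At its own ID the Cdh23 name would fall on a dim probe (0.242 and 0.339 against 0.0567 and 0.136). With early names taken at their own IDs, the control probes do not bear that reading out.

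Ush1c, which encodes harmonin, had 3.91 and 4.03 in the libraries labelled positive and 5.20 and 5.39 in those labelled negative. The groups did not overlap, and neither did those of 31.9% of all probes tested in this direction. The mean was 3.97 ± 0.0834 (SD, n = 2) against 5.29 ± 0.138, and the ratio was 1.33 (log2 change -0.41 ± 0.07 SE, adjusted p = 0.000588, limma, Benjamini-Hochberg). After quantile and cyclic loess normalization the log2 change was -0.47 and -0.53, so it kept its direction and its call. Both normalizations also lowered the median of all probes, from 0.11 to 0.02 and -0.01. The kept call is therefore only a description. Whether Ush1c and Cdh23 changed by different amounts was not tested. Myo7a, the motor of the same complex, had 0.202 and 0.0822 against 0.149 and 0.211. It lay under the limit on all 4 arrays, its groups overlapped and it was not tested.

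Of the synaptic and motor genes, Otof did not pass the test and Slc26a5 was too dim to be tested. Otof had 4.29 and 4.64 in the libraries labelled positive and 5.09 and 4.68 in those labelled negative. The higher of the first pair and the lower of the second lay side by side, and the difference was about as large as the spread within the groups (log2 change -0.13 ± 0.08 SE, adjusted p = 0.175, limma, Benjamini-Hochberg). Over the alternatives the adjusted p ranged from 0.0154 to 0.555, and with cyclic loess normalization Otof was lower (log2 change -0.25). Slc26a5, a gene of cochlear outer hair cells, had 0.232 and 0.081 against 0.116 and 0. All 4 values lay under the limit for dim probes, the groups overlapped and it was not tested.

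Of the genes of the covering gels, Tecta had 0.530 and 0.292 in the libraries labelled positive and 0.916 and 0.978 in those labelled negative. The groups did not overlap, and 1 array labelled positive lay under the limit and 1 above it. α-Tectorin transcript was lower in the libraries labelled positive (log2 change -1.27 ± 0.28 SE, adjusted p = 0.00323, limma, Benjamini-Hochberg). With the dim array raised to the limit the fold was 1.93, which is not a lower bound. The size rests on the dim array: without replicate 2 of the libraries labelled positive it was -0.84 and without replicate 1 -1.70, and with log2(value + 1) -0.47. At its own ID the Tecta name would fall on a probe with 2.34 and 2.25 against 1.11 and 1.21, a change in the other direction (log2 change 0.99). The repeated control probes do not bear that reading out, again with early names taken at their own IDs. With Otog dim by position and Tectb without a probe, Tecta was the only gel protein of the list with a measured level.

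Each member has 1 probe, so no second probe bears on its value. The probes of Otof, Otog and Tecta are annotated through expressed sequence tags and the others through messenger RNA records. A dim probe does not show that a transcript is absent: Snap25, a synaptic gene of all neurons, had 0.0195 to 0.177 on these arrays of ganglion neurons. With 2 arrays a group the smallest p that exchanging labels allows is 0.333, so all calls rest on the spread that limma shares across probes.

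A wider set of inner ear genes, in 4 lists, was read in the same fit. Of their 75 genes 39 had a probe that could be read, 20 passed the limit, 11 of these were higher in the libraries labelled positive, 3 lower, and 6 did not pass. Over all 21070 probes tested 40.6% were higher and 23.6% lower, and the counts of each list below stand beside these shares. Pclo and Krt8 passed the limit through the libraries labelled positive, in which they were brighter, so the count of ear genes too is a description. The median log2 change of the 20, Pclo and Krt8 among them, was 0.31, against 0.11 over all probes tested, and is likewise a description. Quantile and cyclic loess normalization moved the median of all probes to 0.02 and -0.01, the share of probes higher to 33.1% and 31.7% and of probes lower to 28.6% and 32.2%. The ear genes higher then were 8 and 7, and the lower ones 3 and 4. Small rises therefore have no settled call. Ush1c, Cdh23 and Tecta kept their lower call under both normalizations, which is a description and no added support. Both normalizations lowered the median of all probes, which favours falls over rises. They also used the same dim-probe filter, which Cdh23 and Tecta passed through the libraries labelled negative.

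In the list of hair bundle and mechanotransduction genes 4 of 26 genes were tested, 2 were higher and 0 lower. Triobp, which encodes a protein that bundles the actin of stereocilium rootlets, had 38.3 and 39.1 in the libraries labelled positive and 24.8 and 24.1 in those labelled negative (log2 change 0.66, adjusted p = 1.62e-05, limma, Benjamini-Hochberg). Atp2b2, a calcium pump of the hair bundle that neurons also use, had 119 and 127 against 101 and 91.4; its rise was lost with loess normalization (log2 change 0.09). Lhfpl5, a subunit of the transduction channel complex, had 0.992 and 1.11 against 0.823 and 0.937 and did not pass, and neither did Grxcr1 (2.40 and 2.10 against 2.19 and 2.08). Tmc1, the pore of the transduction channel (0.110 to 0.295), and Espn, the actin bundler espin (-0.0805 to 0.133), were dim on all 4 arrays.

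Of the hair cell synapse and basolateral membrane genes 5 of 13 were tested, 4 were higher and 1 lower. The 4 that rose are genes that neurons use as well. Kcnma1, the calcium-activated potassium channel, had 3.34 and 2.93 against 1.40 and 1.19, a 2.43-fold difference, and its second brightest probe also rose (log2 change 1.05). Pclo, which encodes the active zone protein piccolo, had 1.05 and 0.824 against 0.269 and 0.212 and was at least 2.04-fold higher. Bsn, bassoon, had 71.6 and 74.1 against 54.7 and 57.6 at its brightest probe. Ctbp2, whose long form is the ribbon protein, had 27.4 and 25.8 against 20.7 and 20.6. Neither of these Bsn and Ctbp2 probes passed with quantile or loess normalization. The second brightest probe of Bsn also rose (log2 change 0.26), the third did not pass (-0.37) and the dimmest was not tested. Ocm, oncomodulin, a calcium buffer of hair cells, was the gene that fell, with 1.07 and 1.11 against 1.76 and 1.43 (log2 change -0.54, adjusted p = 0.00497, limma, Benjamini-Hochberg). Chrna9, the nicotinic subunit through which efferents act on hair cells, was dim on all arrays (0.0784 to 0.146). Its partner Chrna10 had 0.0284 and 0.0178 against 0.322 and 0.624.

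**Figure D3:**
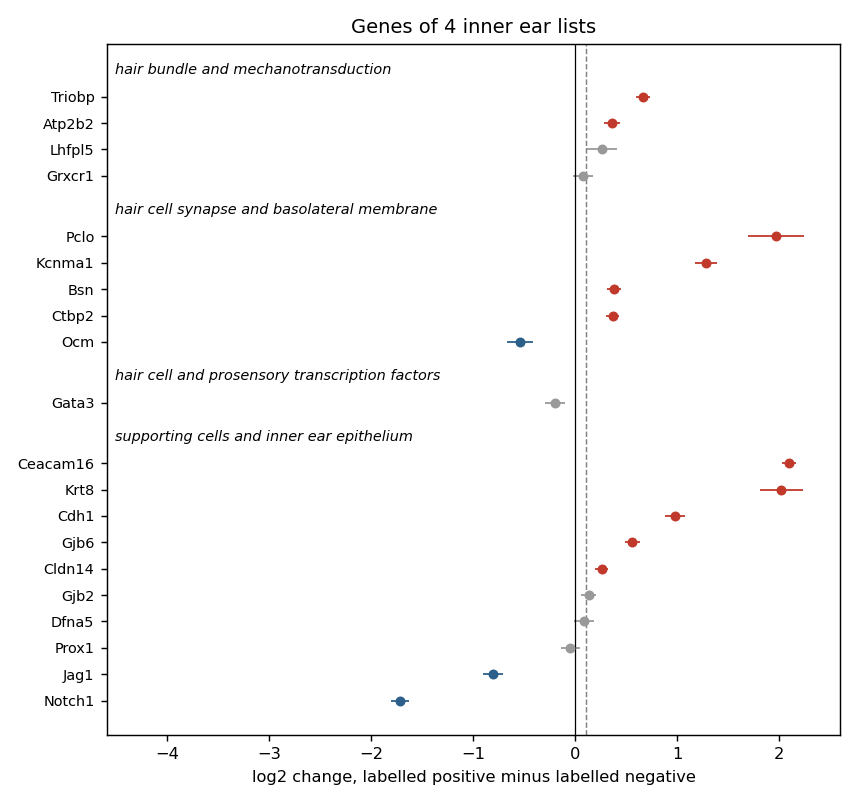
Log2 change (labelled positive minus labelled negative, with its SE) of the 20 genes tested in 4 inner ear lists; red genes were higher, blue genes lower, grey genes did not pass, and the dashed line marks the median of all probes (0.11). Ceacam16 lies to the right (2.10) and Notch1 to the left (-1.72); Krt8 and Pclo lay under the dim-probe limit on both arrays labelled negative, so their plotted changes have no exact size.

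Among the transcription factors 1 of 10 was tested, Gata3, which spiral neurons of the cochlea and the sensory epithelium share. It had 2.67 and 2.41 against 3.12 and 2.71 and did not pass (adjusted p = 0.103, limma, Benjamini-Hochberg), but was lower with loess normalization (log2 change -0.27). The hair cell factors Gfi1 (0.288 to 0.470), Lhx3 (0.265 to 0.484) and Barhl1 (0.0344 to 0.439) had mean levels under the limit.

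Of the supporting cell and epithelium genes 10 of 26 were tested, 5 were higher, 2 lower and 3 did not pass. Over all probes tested 40.6% were higher and 23.6% lower, so these counts lie near the shares of all probes. Ceacam16, which encodes an adhesion protein secreted into the tectorial membrane beside α-tectorin, had 42.0 and 44.7 in the libraries labelled positive and 10.4 and 9.84 in those labelled negative. The 4.28-fold rise of Ceacam16 (adjusted p = 2.24e-08, limma, Benjamini-Hochberg) thus ran opposite to the fall of Tecta. Krt8, a keratin of simple epithelia, had 1.20 and 1.15 against 0.298 and 0.281 and was at least 2.57-fold higher. Cdh1, the epithelial cadherin, had 97.0 and 84.0 against 49.4 and 42.4, and its second probe rose less (log2 change 0.42 beside 0.98). Epcam, another marker of epithelia, was dim on all arrays (0.106 to 0.365). The genes that fell belong to Notch signalling, which supporting cells share with glia and vessels. Notch1 had 1.10 and 1.09 against 3.60 and 3.60, 3.30-fold lower, and its ligand Jag1 1.72 and 2.04 against 3.38 and 3.17, 1.75-fold lower. Of the 19 ear genes that were not tested 14 were under the limit on every array, and 5, Tmie, Chrna10, Rims2, Gfi1 and Lhx3, reached it on 1 or 2 arrays. Tmie, a component of the transduction complex, did so on both arrays labelled negative (0.691 and 0.658 against 0.0181 and 0.213). Ocm, Jag1 and the ear genes that were not tested were named after their values were seen.

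The libraries also differed in markers of other cells. Those of glia, vessels and blood mostly ran in the direction of Cdh23, Tecta and Ush1c, and those of stroma and neurons did not. Of 8 Schwann cell and satellite glia genes tested 7 were lower in the libraries labelled positive, led by Lgi4 and Mbp (log2 change -4.82 and -3.11); Mag and Erbb3 were dim on all arrays, and the summed intensity of the list was 118 to 128 against 268 to 282. Of 6 oligodendrocyte and astrocyte genes 5 were lower (Mog -5.42 and Mobp -5.33; summed 313 to 321 against 553 to 561), and Opalin, Olig2, Slc1a2 and Gja1 were dim on all arrays. Of 7 endothelial and mural genes 6 were lower (Vwf -2.26 and Pecam1 -1.92; summed 26.6 to 27.3 against 79.9 to 84.0), with Kdr and Acta2 dim. Of 5 blood and immune genes 3 were lower and 1 higher (Alas2 -1.34 and Csf1r -1.20; summed 65.0 to 69.3 against 135 to 147), with Ptprc, Hba1 and Lyz2 dim. Of 5 stromal genes 2 were higher and 2 lower (Ogn 1.08 and Fbln1 0.82, the latter by position only; summed 202 to 207 against 139 to 146). Of 9 neuron genes 6 were higher and 2 lower (Nefh 1.62 and Prph -1.01; summed 697 against 636 to 642), and with quantile or loess normalization 3 were higher and 2 lower. The sums are weighted to bright genes. Prx, at 113 and 101 in the libraries labelled positive against 191 and 207, made up most of the Schwann cell and satellite glia sum. The part of the markers of other cells in the members' differences was not tested. In pooled cells, fewer cells of a type and less RNA per cell cannot be told apart.

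Calretinin, by which the cells were taken, gives a check on the direction of the labels. Its transcript, Calb2, had 291 and 328 in the libraries labelled positive and 138 and 129 in those labelled negative under both late readings, and 6.10 and 5.92 against 13.1 and 12.4 at its own ID. The direction by the first value, a 2.31-fold difference, goes with the titles. The libraries labelled negative were also bright for Calb2, far above the array median, so that label does not mean that the transcript was absent. Array medians were 0.9896 to 0.9916. The correlation between both arrays of a group, across probes tested, was 0.990 (positive) and 0.994 (negative). The median SD between the 2 arrays of a group was 0.0549 and 0.0535 on the log2 scale for probes at the level of Ush1c and Otof (mean log2 of 2 to 4), and 0.130 and 0.124 for probes at the level of Tecta and Cdh23 (below 0). Precision is limited by the number of arrays.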

How the data were processed

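The authors deposited one value table, read here as intensity on a linear scale for 35126 probes; which scanner, background correction or normalization made it is not stated, nor whether values were centred, though every array has a median near 0.99. The 10 members and all gene lists were chosen with earlier results of these data known.

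The file's code for missing values was honoured, and 9 probes missing on every array were left out. Values at or below 0 (532 to 776 per array) and other missing values (1 to 30) were raised to percentile 1 of that array's positive intensities, and log2 was taken. Probes under the 40th percentile of mean log2 intensity were left out, and the other 21070 entered a two-sided test by limma 3.58.1 (R 4.3.3; lmFit, then eBayes with an intensity trend), with Benjamini-Hochberg adjustment over all of them and a threshold of 0.05. No further normalization was applied. A fold written as "at least" raises each array of the dimmer group to the dim-probe limit where it lay lower.

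Names came from the platform annotation (16677 probes with 1 symbol, 163 with several, 18286 with none); 16649 of the first matched GRCr8 gene IDs. The written design read late names 5 table rows later; reading them 5 array positions later departs from it, after the comparison of control probes. A list gene with several probes is given by its brightest. Named are all members, of each ear list the 4 tested genes and of each other list the 2 tested genes with the smallest p, and others where the text says so or to show dim markers. The fit was tested on simulated data. Alternatives covered normalization, filters, floors, variance priors, log2(value + 1), the replicate number as a block, a threshold of 0.10, leaving out each array, other readings of names, and the mean over the probes of a gene. Promoters are RefSeq's, matched by symbol for 9 of the 10 members, not Tecta. Figures were drawn with matplotlib 3.10.9.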

Additional observations from a re-analysis of the deposited data

How the results depend on the processing

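The 3 member probes lower in the libraries labelled positive became 1 with a stricter dim-probe limit at percentile 60, which removes Tecta and Cdh23, 1 with names of the early part only, which removes both too, and 1 with every name at its own table row; in that last setting 1 member was higher, Tecta, at a log2 change of 0.985. The reading of late names by array positions, on which the count of 3 rests, was chosen after seeing the data; with names read 5 table rows later, as the written design has it, 4 were lower. The 11 higher genes of the ear lists became 7 with cyclic loess normalization, and the 3 lower ones 5 with no filter on dim probes and 7 with every name at its own table row. In the other settings run these counts and that of all probes called (13530) stayed within 1.5 times. Ush1c kept its call and direction in 17 of 17 alternatives, Cdh23 in 14 of 14 and Tecta in 14 of 15. Otof gained a call in 1 of 17. These tallies include settings that could not change the result. The other readings of names leave the values of the early genes Ush1c and Otof as they are. Reading late names 5 table rows later likewise leaves those of Cdh23 and Tecta as they are. A looser threshold cannot remove a call. Settings in which a gene was not tested are not counted, such as Cdh23 at its own table row. Without each array in turn 12262 to 12764 probes were called, the remaining array of that group being assumed to vary like those of the other. The replicate block gave 13711 calls and changed no member's call. Deviations from the group means, across probes, were unrelated between arrays of equal number (r = 0.000316). That cannot show whether arrays of equal number came from the same pool or day. Where no construction of the setting shows it, the cause was not tested. Myo7a, Slc26a5 and Otog lay under the dim-probe limit on every array.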

Other observations

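The 2 readings of late names give the same value for 6644 of 7218 late probes with 1 symbol (92.0%), and differ for 565. The remaining 9 names point to a position with no row in the table, although 4.38% of the 36736 array positions have none. Among the ear lists and the members Otog was the only gene whose value differed between the readings; in the lists of other cells Egr2, Slc1a2, Gja1, Fbln1 and Ptprc did, and only their values by position were used.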
